A study of Mus musculus with 91 samples.

Results

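The Egr family, Egr1, Egr2, Egr3 and Egr4, is described here in D1 and D2 neurons of the mouse nucleus accumbens at 6 times of day. The members are the 4 rows of the count table whose Ensembl identifiers belong to these genes, and 4 of 4 were present among 14355 genes. They are ENSMUSG00000038418 (Egr1), ENSMUSG00000037868 (Egr2), ENSMUSG00000033730 (Egr3) and ENSMUSG00000071341 (Egr4). All 4 were tested, so no member was lost to a filter on low values. The rule that picks them is a list of identifiers with no threshold on a measured value.

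Egr proteins are transcription factors that bind GC-rich DNA through zinc fingers. In neurons their genes are immediate early genes: calcium entry and kinase signalling after synaptic activity switch them on without new protein synthesis, through SRF at CArG boxes and CREB at cyclic AMP response elements in their promoters. In the striatum, dopamine and glutamate inputs to medium spiny neurons are known to induce them. D1 neurons carry the dopamine receptor Drd1 and project mainly in the direct pathway, whereas D2 neurons carry Drd2 and the adenosine receptor Adora2a.

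The mice were Drd1-Cre or A2a-Cre animals crossed to RiboTag, a line in which Cre switches on the ribosomal protein Rpl22 with a hemagglutinin (HA) tag, and all were more than 10 weeks old. All groups carry the tag, and Cre alone sets the cell type: Drd1-Cre gave the D1 libraries and A2a-Cre the D2 libraries. Accumbens punches of 2 mice were pooled for each library, and RNA bound to tagged ribosomes was pulled down with an anti-HA antibody and sequenced. There were 22 male and 23 female D1 libraries and 23 male and 23 female D2 libraries, in 24 groups of 3 or 4 at ZT 2, 6, 10, 14, 18 and 22. ZT counts hours after lights on, with lights off at ZT 12, so that ZT 14, 18 and 22 are the dark phase, when mice are active, and ZT 2, 6 and 10 the light phase. The homogenate and astrocyte samples that the design mentions were not analysed here.

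Libraries held 6872165 to 24665262 counts over the 14355 genes. The deposited table is labelled as filtered by log CPM, so totals and shares of genes cover only the genes kept. Between 620 and 6476 of a library's counts belonged to Egr1, 8 to 162 to Egr2, 242 to 1573 to Egr3 and 31 to 459 to Egr4, so Egr2 has the largest counting error. Levels are CPM, read counts scaled to normalised library totals, which are not divided by gene length and are compared here only within a gene. The titles carry letters A to E whose meaning the labels do not state. Libraries of the same letter deviated together from their group means in D2 neurons, where the correlation exceeded 0.1 in 100% of 243 pairs; in D1 neurons it did so in 70.0% of 223 pairs. D2 values are therefore also given with the letter as a block wherever that changes a call. 3 D1 male libraries stood apart, with 789 (ZT 10, letter B), 722 (ZT 22, letter B) and 205 (ZT 18, letter D) genes at a count of 0, against at most 3 in the other 88 libraries. The count table names no gene, so cell type markers could not be looked up and the labelled cell types could not be checked against them.

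Egr2 was higher in the dark phase in both cell types, 2.07-fold in D1 and 1.84-fold in D2 neurons. Egr2 is best known for patterning the embryonic hindbrain and for myelination by Schwann cells, and in forebrain neurons it is an activity-induced gene. The gene lies on chromosome 10 at chr10:67534469-67542188 (RefSeq, GRCm38.p6). 5 RefSeq promoter windows, each from 250 bases before to 50 after an annotated start, were found for Egr2. Both printed stretches were chosen because they hold a CArG box, the site bound by SRF. The second box lies in several of the windows, which overlap. The second stretch also holds TGACG, the core of the cyclic AMP response element, read on the opposite strand as CGTCA. Capitals mark the letters of the CArG boxes and of CGTCA.
Egr2, chr10:67537489-67537518, + strand: cttctCCTTTTTTGGaaagtctcggagaac
Egr2, chr10:67537792-67537821, + strand: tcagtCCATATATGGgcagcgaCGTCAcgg
Each CArG box begins 72 bases before an annotated start, at positions 67537566 and 67537869, both inside the span of the gene given above, which has an earlier start. Over both strands, 1.63% of 32851 RefSeq promoter windows of this length hold a CArG box and 20.8% hold TGACG. These matches describe letters only; binding was not measured.

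In D1 neurons at ZT 2, Egr2 ranged from 1.94 to 6.42 CPM with a median of 3.07 (n = 8). At ZT 6 it ranged from 1.53 to 4.12 with a median of 1.96 (n = 8), and at ZT 10 from 1.10 to 5.61 with a median of 2.85 (n = 8). After lights off the medians were higher. At ZT 14 the range was 3.65 to 8.65 CPM with a median of 5.71 (n = 7), and at ZT 18 it was 3.40 to 10.5 with a median of 5.99 (n = 6). At ZT 22 it was 2.10 to 8.50 with a median of 6.31 (n = 8), and the lowest of these values came from a library that stands apart, male letter B.

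The D2 libraries gave the same order of phases. Egr2 had medians of 3.35 CPM at ZT 2 (1.55 to 5.43, n = 7), 2.05 at ZT 6 (0.72 to 2.75, n = 7) and 2.43 at ZT 10 (1.12 to 5.82, n = 8). In the dark phase the medians were 4.78 at ZT 14 (3.24 to 6.36, n = 8), 5.77 at ZT 18 (3.21 to 6.92, n = 8) and 3.77 at ZT 22 (1.92 to 7.26, n = 8). All 8 libraries at ZT 18 lay above all 7 at ZT 6. These times were picked for having the highest and lowest mean, so this is a description. How many of all genes separate in this way was not computed. In D1 neurons the libraries of the same times overlapped.

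Over the whole phases, Egr2 averaged 5.91 ± 2.30 CPM in the dark and 2.93 ± 1.32 CPM in the light in D1 neurons (SD, n = 21 and 24). In D2 neurons it averaged 4.86 ± 1.46 CPM in the dark and 2.67 ± 1.26 CPM in the light (SD, n = 24 and 22). Single libraries of the phases overlapped: the lowest dark libraries had 2.10 CPM among D1 and 1.92 CPM among D2 neurons, and the highest light libraries had 6.42 and 5.82 CPM. In edgeR's quasi-likelihood test, adjusted over all 14355 genes, Egr2 was 2.07-fold higher in the dark in D1 neurons (95% interval 1.64 to 2.62, adjusted p = 0.000684) and 1.84-fold higher in D2 neurons (95% interval 1.47 to 2.29, adjusted p = 0.00302). Dark against light folds and differences come from log2 differences averaged over the sexes and over the 3 times of a phase. Separate mice for each library of a group are not stated in the labels, so the p-values measure only the spread between these libraries. In these bulk libraries fewer expressing cells and less RNA per cell cannot be told apart. Without the 3 libraries that stand apart the D1 difference was 1.15 ± 0.17 on the log2 scale (SE, adjusted p = 0.000243). Without the letter B libraries the D2 difference was 0.85 on the log2 scale and no longer passed the threshold of 0.05 (adjusted p = 0.105).

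Of all genes tested, 0.265% were called in D1 and 1.93% in D2 neurons for dark against light, and 1 of the 4 members was called in each, where called means an adjusted p under 0.05. The median dark minus light difference of the 4 members was 0.26 on the log2 scale in D1 and 0.34 in D2 neurons, beside 0.0028 and -0.0011 for the whole table. Taken without its sign, the difference had a median over the whole table of 0.0785 in D1 and 0.0677 in D2 neurons. Blocking on the letter, 17.8% of all genes and 4 of the 4 members were called in D2 neurons.

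**Figure D1:**
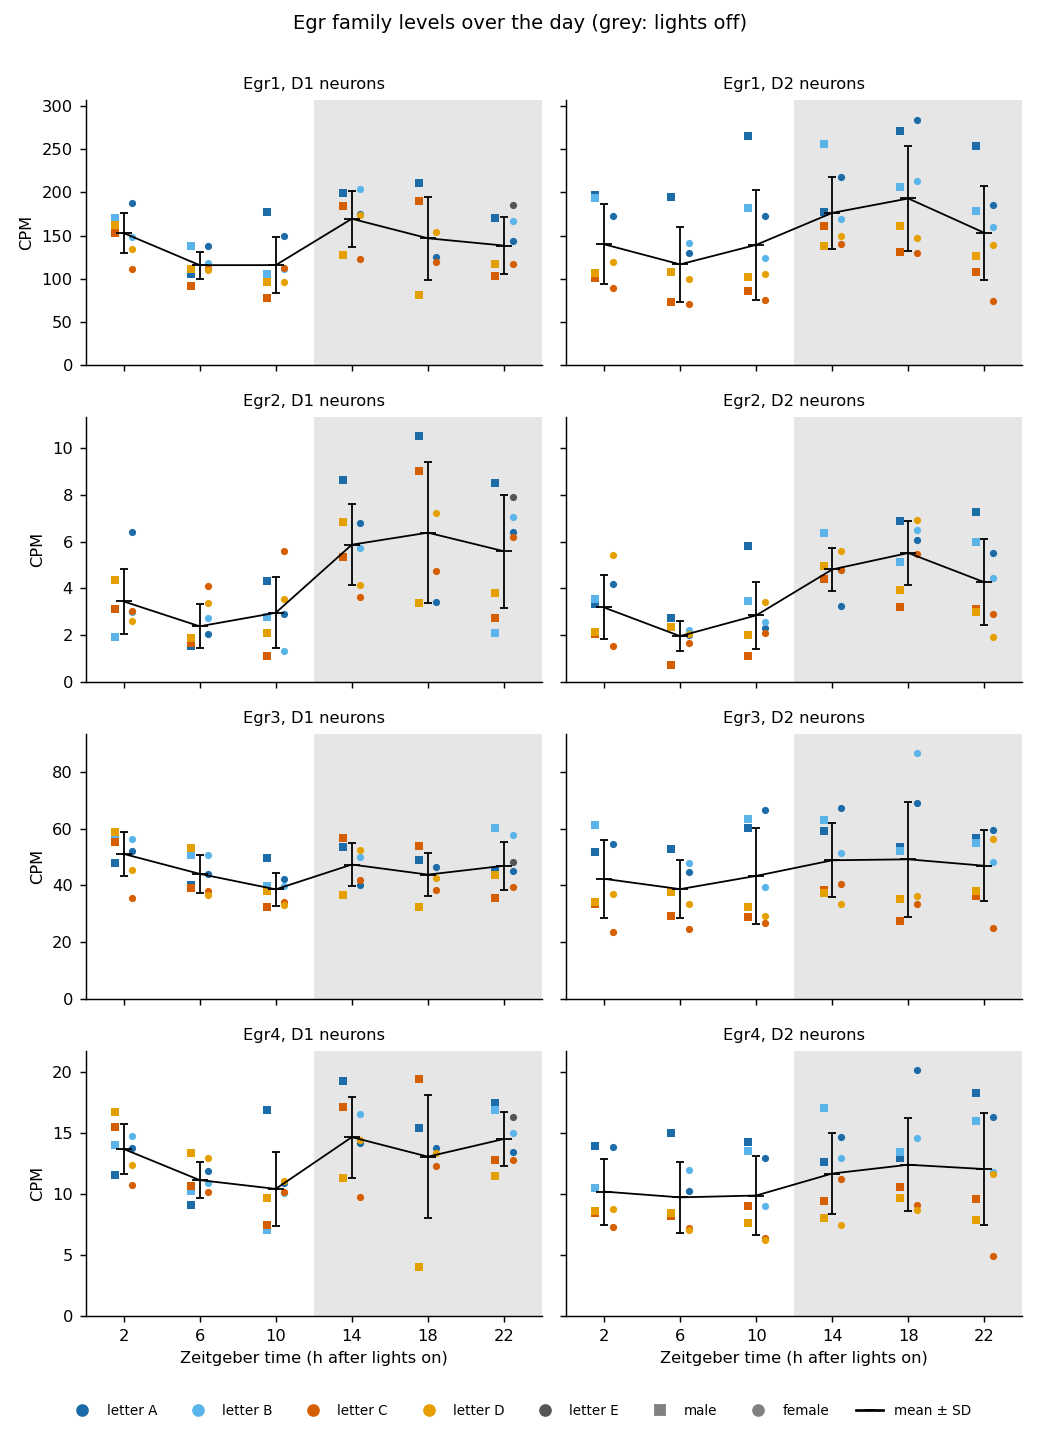
Level of each Egr gene (CPM, from 0) against Zeitgeber time in hours, with D1 neurons on the left and D2 neurons on the right. Each point is 1 library, coloured by letter, with squares for males and circles for females; black lines join the means of the libraries at each time and bars are 1 SD. Egr2 sits higher in the grey dark phase in both columns, with means of 5.87, 6.39 and 5.59 CPM against 3.45, 2.38 and 2.96 CPM in D1 neurons.

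Egr1, the member most used as a marker of neuronal activity and plasticity, lies at chr18:34861207-34864956. In D1 neurons its level ran from 81.0 to 210.9 CPM with a median of 154.5 in the dark (n = 21), against 77.9 to 187.6 CPM with a median of 115.3 in the light (n = 24). In D2 neurons it ran from 74.5 to 284.6 CPM with a median of 160.8 in the dark (n = 24), against 71.0 to 265.5 CPM with a median of 113.3 in the light (n = 22). The phases overlapped over most of their range in both cell types. The fitted dark minus light difference was 0.25 ± 0.10 on the log2 scale in D1 neurons (SE, adjusted p = 0.300) and 0.41 ± 0.15 in D2 neurons (SE, adjusted p = 0.176), neither past the threshold. Without the 3 libraries that stand apart the D1 difference was 0.31 ± 0.09 (SE, adjusted p = 0.0995). With the letter as a block as well, it was 0.31 ± 0.07 and edgeR called it (SE, adjusted p = 0.0146), with 273 genes called over the whole table. Blocked on the letter, the D2 difference was again 0.41 but with an SE of 0.06, and edgeR called it (adjusted p = 1.25e-05). Within every letter from A to D, sexes together, the mean of the dark libraries exceeded that of the light libraries in both cell types. Split by sex, D1 neurons went the other way in letter A females (-0.10), B males (-0.39, 1 dark library) and D males (-0.17, log2(CPM + 1)). The other D1 combinations of letter and sex, and all of those in D2 neurons, were above 0. The B males include the ZT 10 and ZT 22 libraries that stand apart, and the D males the ZT 18 library that does. The part of these libraries in the directions was not tested.

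The times with the highest Egr1 mean were ZT 14 in D1 neurons, with 169.5 ± 32.4 CPM (SD, n = 7), and ZT 18 in D2 neurons, with 193.1 ± 61.2 CPM (SD, n = 8). The lowest mean was at ZT 6 in both, with 115.8 ± 15.7 CPM in 8 D1 libraries and 116.7 ± 43.4 CPM in 7 D2 libraries (SD). In D1 neurons ZT 2, with 153.0 ± 22.8 CPM (SD, n = 8), stood next to ZT 14 in this order.

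Egr4 is known from mice for its part in the maturation of male germ cells, and it lacks the stretch through which the other members bind the Nab corepressors. It lies at chr6:85511121-85513589, on the minus strand. Its single RefSeq promoter window held TGACG on the opposite strand at 2 places, beginning 177 and 109 bases before the start, and the stretch that spans both is shown with CGTCA in capitals.
Egr4, chr6:85513684-85513776, − strand: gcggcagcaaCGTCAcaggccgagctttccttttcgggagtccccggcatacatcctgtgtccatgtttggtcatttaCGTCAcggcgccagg
In D1 neurons Egr4 ran from 4.05 to 19.4 CPM with a median of 14.2 in the dark (n = 21), against 7.05 to 16.9 CPM with a median of 11.0 in the light (n = 24). The 4.05 CPM belongs to a library that stands apart, male ZT 18 letter D, which held 31 Egr4 counts. In D2 neurons Egr4 ran from 4.88 to 20.2 CPM with a median of 11.8 in the dark (n = 24), against 6.22 to 15.0 CPM with a median of 8.89 in the light (n = 22). The phases overlapped in both cell types.

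Dark minus light for Egr4 was 0.28 ± 0.11 in D1 neurons (log2, SE, adjusted p = 0.313) and 0.28 ± 0.14 in D2 neurons (log2, SE, adjusted p = 0.414). The D2 value with the letter as a block was 0.25 ± 0.07, which edgeR called (adjusted p = 0.00956). In D1 neurons letter D was the exception to the direction, with means of 10.9 CPM in the dark and 12.7 CPM in the light. Letter D includes the ZT 18 library, and the part of that library in the direction was not tested. Without the 3 libraries that stand apart the D1 difference was 0.31 ± 0.08 (log2, SE, adjusted p = 0.0733). With the letter as a block as well, it was again 0.31 ± 0.08 and edgeR called it (log2, SE, adjusted p = 0.0459).

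Egr3, which is needed in mice for muscle spindles and in striatal neurons is among the activity-induced members, lies at chr14:70077317-70082613. Of the 4 members it had the smallest dark minus light estimate in both cell types. In D1 neurons it ran from 32.5 to 60.1 CPM with a median of 45.0 in the dark (n = 21), against 32.4 to 58.9 CPM with a median of 43.1 in the light (n = 24). In D2 neurons it ran from 25.1 to 86.5 CPM with a median of 49.8 in the dark (n = 24), against 23.7 to 66.5 CPM with a median of 37.5 in the light (n = 22). The ranges almost coincided in D1 neurons. The fitted difference was 0.06 ± 0.07 in D1 neurons (log2, SE, adjusted p = 0.773), with a 95% interval of -0.08 to 0.20, and 0.23 ± 0.14 in D2 neurons (log2, SE, adjusted p = 0.608). Blocked on the letter, the D2 value was 0.20 ± 0.06 and was called (adjusted p = 0.0241), with estimates of 0.05 in males and 0.34 in females. No RefSeq promoter entry was matched for Egr1 or Egr3.

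**Figure D2:**
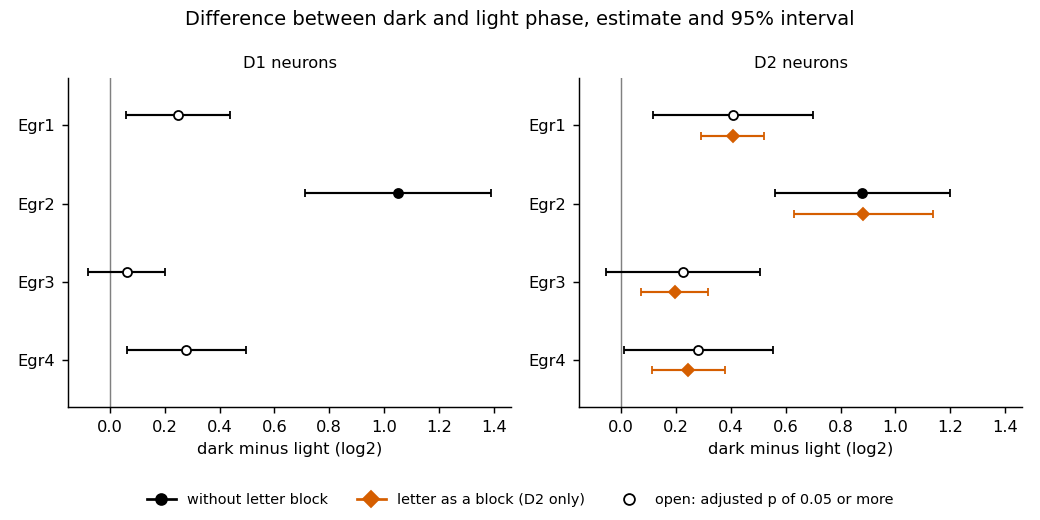
Fitted dark minus light difference (log2) of each Egr gene in D1 neurons (left) and D2 neurons (right); points are estimates and bars 95% intervals, black without the letter as a block and, for D2 neurons, orange with it. Filled points have an adjusted p under 0.05: Egr2 in every case, and Egr1, Egr3 and Egr4 in D2 neurons with the block only.

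A 24-hour cosine was then fitted, with its own mean and terms for each sex. Amplitudes are log2 distances between the mean and the peak. Egr2 was rhythmic in D1 neurons, with an amplitude of 0.78 ± 0.12 (SE, n = 45, adjusted p = 0.000937) and a peak at ZT 18.2. It was also rhythmic in D2 neurons, with an amplitude of 0.68 ± 0.11 (SE, n = 46, adjusted p = 0.000987) and a peak at ZT 18.0. The background was 0.495% of genes called in D1 and 2.94% in D2 neurons. By amplitude, Egr2 was number 4 of the 71 rhythmic genes in D1 neurons and number 7 of the 422 in D2 neurons. Without letter A the D1 amplitude was 0.70 and was no longer called (adjusted p = 0.0623), and without the 3 libraries that stand apart it was 0.86 (adjusted p = 8.32e-05).

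The other 3 members had smaller amplitudes that were not called in either cell type. Egr1 had an amplitude of 0.19 ± 0.07 in D1 (adjusted p = 0.399) and 0.33 ± 0.10 in D2 neurons (SE, adjusted p = 0.138), and Egr4 had 0.22 ± 0.08 in D1 (adjusted p = 0.326) and 0.20 ± 0.09 in D2 neurons (SE, adjusted p = 0.538). Egr3 had 0.12 ± 0.05 in D1 (adjusted p = 0.435) and 0.17 ± 0.10 in D2 neurons (SE, adjusted p = 0.781). In the fit with the letter as a block, all 4 members were called rhythmic in D2 neurons, where 22.3% of all genes were. Egr1 then had an amplitude of 0.33 (adjusted p = 2.03e-06), Egr2 0.68 (adjusted p = 4.89e-06), Egr3 0.14 (adjusted p = 0.0409) and Egr4 0.18 (adjusted p = 0.0132). Their blocked peaks fell at ZT 17.3 for Egr1, ZT 18.0 for Egr2, ZT 17.6 for Egr3 and ZT 18.7 for Egr4.

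Tested for any difference among the 6 times without a set shape, Egr2 spanned 1.46 on the log2 scale between its highest and lowest time in D1 (adjusted p = 0.0241) and 1.47 in D2 neurons (adjusted p = 0.0283). Here 0.181% of genes were called in D1 and 0.634% in D2 neurons, and 1 of the 4 members in each. Both Egr2 calls were lost when any letter from A to D was left out. With the letter as a block, 10.2% of genes were called in D2 neurons, among them Egr2 (adjusted p = 0.00013) and Egr1, which spanned 0.69 (adjusted p = 3.59e-05).

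Ordered by mean level, the 6 times gave 40 pairs of neighbours over the 4 genes and both cell types. The ranges of the libraries overlapped in 40 of the 40 pairs. Since the order itself was set by these means, this is a description, and permutation tests run on the pairs are not used. The share of overlapping neighbours over all genes was not computed. For Egr2 the largest step between neighbours in D1 neurons lay between ZT 22, with 5.59 ± 2.41 CPM, and ZT 2, with 3.45 ± 1.38 CPM (SD, n = 8 each), a ratio of mean CPM of 1.62. The highest and lowest means of Egr2 differed by a ratio of mean CPM of 2.68 in D1 (ZT 18 over ZT 6) and 2.81 in D2 neurons (ZT 18 over ZT 6), given as a description.

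No member passed the test for a different daily course in D1 and D2 neurons. Dark minus light in D1 less that in D2 neurons was -0.16 ± 0.18 for Egr1, 0.17 ± 0.24 for Egr2, -0.17 ± 0.16 for Egr3 and 0.00 ± 0.18 for Egr4 (log2, SE). The adjusted p-values were 0.846, 0.874, 0.816 and 0.997, and 0.0766% of all genes were called. The 95% interval for Egr2 ran from -0.30 to 0.64. The test of a different rhythm gave adjusted p-values from 0.727 for Egr3 to 0.918 for Egr2, with 0.0139% of all genes called.

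Mean levels over the day were set side by side in D1 and D2 neurons. Egr1 had a mean of 139.0 ± 35.4 CPM over the 45 D1 libraries and 154.2 ± 56.0 CPM over the 46 D2 libraries (SD), a fitted difference of -0.12 ± 0.09 (log2, SE, adjusted p = 0.362). Egr2 had 4.32 ± 2.36 CPM in D1 libraries and 3.82 ± 1.75 CPM in D2 libraries (SD), with a difference of 0.19 ± 0.12 (log2, SE, adjusted p = 0.270). Egr3 had 45.3 ± 7.98 CPM in D1 libraries and 45.1 ± 14.6 CPM in D2 libraries (SD), with a difference of 0.02 ± 0.08 (log2, SE, adjusted p = 0.897). Against a background of 17.3% of genes called, no member passed this test without a block.

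Egr4 had 12.9 ± 3.23 CPM in D1 libraries and 11.0 ± 3.50 CPM in D2 libraries (SD), 1.17-fold higher in D1 neurons in the fit averaged over the sexes and all 6 times (95% interval 1.04 to 1.32, adjusted p = 0.0700). Blocked on the letter, separately for D1 and D2 libraries, the difference was 0.28 ± 0.07 on the log2 scale and was called (adjusted p = 0.000317), as were 42% of all genes. This block takes the spread between letters out of the SE, so the call holds for these letters only. The letters were not taken to pair D1 libraries. The ranges overlapped, with 4.05 to 19.4 CPM in the D1 libraries and 4.88 to 20.2 CPM in the D2 libraries. Without the 3 libraries that stand apart the difference was 0.27 ± 0.09 on the log2 scale and was called (adjusted p = 0.0187). Leaving out letter C gave 0.13 (adjusted p = 0.557) and leaving out letter A 0.37 (adjusted p = 0.00419). Mean Egr4 was higher in D1 than in D2 libraries in letters C (12.4 and 8.45 CPM) and D (11.9 and 8.34 CPM). It was slightly lower in D1 libraries in letters A (14.0 and 14.6 CPM) and B (12.9 and 13.1 CPM). The 2 cell types came from different mouse lines, so line and cell type cannot be told apart.

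No member passed the test for a difference in level between males and females. Male minus female differences lay between -0.18 ± 0.17 (Egr2) and 0.09 ± 0.07 (Egr3) in D1 neurons, where 0.0279% of genes were called, and between 0.00 ± 0.16 (Egr2) and 0.20 ± 0.15 (Egr1) in D2 neurons, where 0.139% were called (log2, SE). The adjusted p-values lay between 0.551 and 0.997.

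The dark minus light difference of Egr2 was largest in D1 males, at 1.36 ± 0.25, beside 0.74 ± 0.24 in D1 females (log2, SE, n = 22 and 23). In D2 neurons it was 0.93 ± 0.23 in males and 0.83 ± 0.23 in females (log2, SE, n = 23 each). Behind the D1 values lay 2.10, 6.08 and 10.5 CPM (lowest, median and highest) in male dark libraries, against 1.10, 2.02 and 4.36 CPM in male light libraries. In D1 females the dark libraries had 3.41, 6.22 and 7.90 CPM, against 1.33, 3.02 and 6.42 CPM in the light. The difference between the sexes, 0.62 ± 0.35 in D1 neurons, did not pass the test (log2, SE, adjusted p = 1). Without the 3 male libraries that stand apart it was 0.81 ± 0.33 (log2, SE, adjusted p = 1.00). For that difference edgeR called 0% of genes in D1 neurons, with 253 genes at an unadjusted p under 0.05 and 1 gene called by DESeq2, and 0.00697% in D2 neurons.

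The blocked dark minus light differences of the other members in D2 neurons also had unequal estimates in the sexes. Egr3 had 0.05 ± 0.09 in males and 0.34 ± 0.09 in females, Egr4 had 0.16 ± 0.09 in males and 0.34 ± 0.10 in females, and Egr1 had 0.35 ± 0.08 in males and 0.46 ± 0.08 in females (log2, SE, n = 23 each). For Egr3 the male minus female difference was -0.29 ± 0.12 with a 95% interval of -0.53 to -0.05, and it did not pass the test over all genes (adjusted p = 0.717).

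The letters were a larger part of the spread than the time of day for 3 of the members in D2 neurons. Letter alone accounted for 63.9% of the variance of log2(CPM + 1) for Egr1, 74.5% for Egr3 and 66.7% for Egr4 in D2 neurons, with an all-gene median of 61.6%, and time of day for 23.0%, 6.60% and 9.09% of it, with an all-gene median of 5.61%. Egr2 went the other way, with 19.6% for letter and 50.5% for time. In D1 neurons time of day accounted for more than letter in all 4 members, from 23.7% (Egr4) to 45.5% (Egr2), beside an all-gene median of 11.2% for time and 24.3% for letter.

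**Figure D3:**
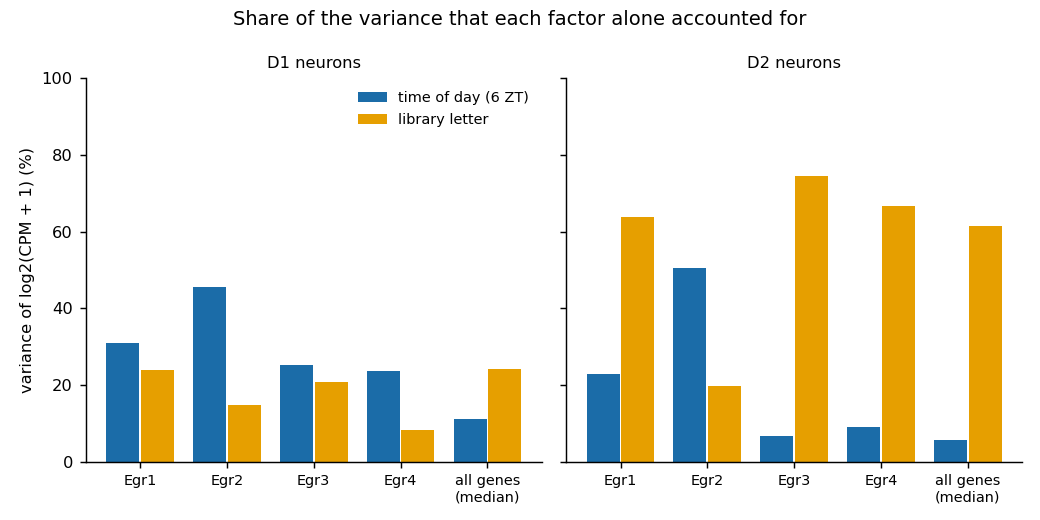
Share of the variance of log2(CPM + 1) (%, from 0) that time of day (blue) or library letter (orange) accounted for when taken alone, for each Egr gene and the median of all genes, in D1 neurons (left) and D2 neurons (right). In D2 neurons the letter bar is the taller for Egr1, Egr3 and Egr4, and the time bar for Egr2.

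In D2 neurons Egr1 averaged 210.4 CPM in letter A, 182.6 in B, 103.3 in C and 125.1 in D, and Egr3 averaged 58.0, 56.8, 30.6 and 36.8 CPM in the same order. Letters A and B were thus high and C and D low for both genes. Library totals moved with the letter too: D2 libraries averaged 19727000 counts in A, 16241700 in B, 11336300 in C and 10904600 in D. The part of depth in these levels was not tested. Within the letters, the dark minus light difference of Egr2 lay between 0.60 and 0.96 in D1 and between 0.45 and 0.98 in D2 neurons (log2(CPM + 1)), above 0 in all 4 letters of each. It was above 0 in all 4 letters of D2 neurons for Egr1 (0.30 to 0.55), Egr3 (0.15 to 0.25) and Egr4 (0.17 to 0.32) as well. In D1 neurons it was above 0 in 4 letters for Egr1 (0.12 to 0.33) and in 3 of 4 for Egr3 (-0.07 to 0.20) and Egr4 (-0.28 to 0.53). Split by sex as well, Egr3 was below 0 in D2 letter B males (-0.14), and Egr4 was at 0.0004 in D2 letter A males. All other D2 combinations of the 4 members were above 0. Egr2 was below 0 in D1 letter B males (-0.006, 1 dark library, which stands apart) and above 0 in its other D1 combinations.

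**Figure D4:**
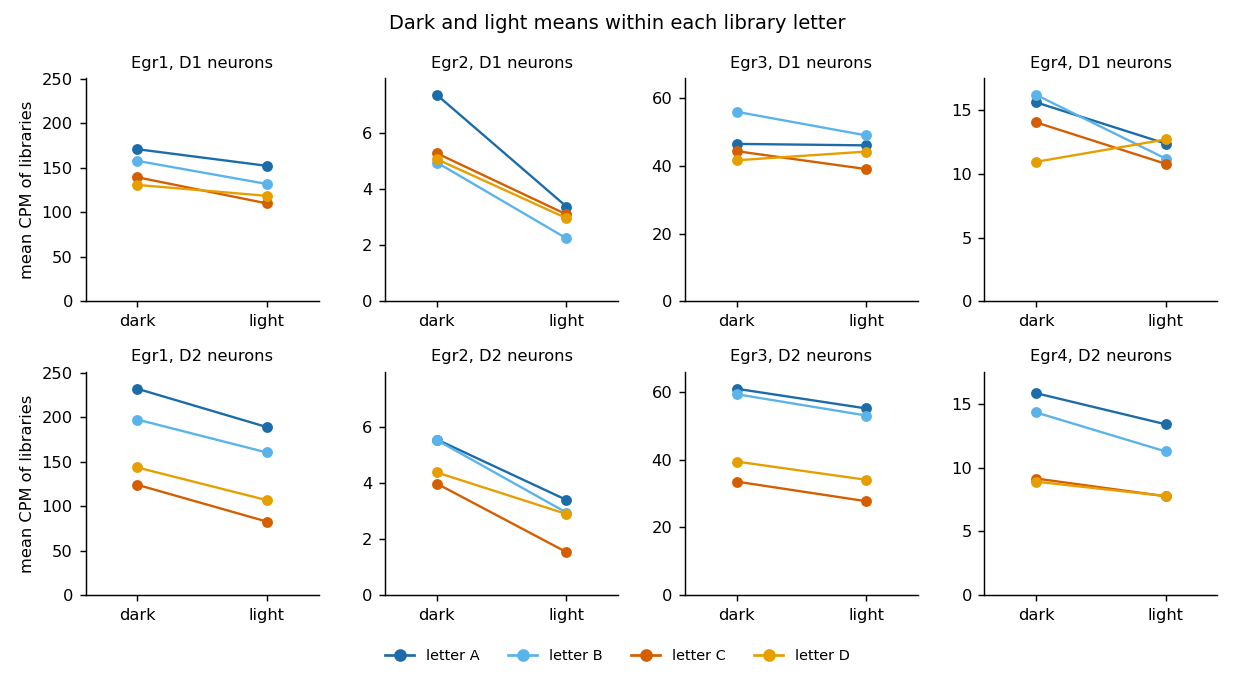
Mean CPM (from 0) of the dark and light libraries within each letter A to D, for each Egr gene in D1 neurons (top) and D2 neurons (bottom); each line is 1 letter. Lines fall towards the light in all D2 panels, and in D1 neurons letter D runs the other way for Egr3 and Egr4.

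The members varied together from library to library. In Pearson correlations of log2(CPM + 1) over all 91 libraries, with letter means within each cell type removed, Egr1 correlated with Egr2 at 0.71, with Egr3 at 0.66 and with Egr4 at 0.72. Egr3 and Egr4 correlated at 0.70, Egr2 and Egr4 at 0.46 and Egr2 and Egr3 at 0.30. Once the means of the 24 groups were also removed, Egr2 and Egr3 were at 0.11 and Egr3 and Egr4 at 0.66. These coefficients are descriptions, since libraries share time of day, sex and depth.

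Among all other genes compared, the 2 most like each member were found by the same correlation over the 91 libraries. For Egr4 they were Egr1 (0.72) and Egr3 (0.70). For Egr1 and for Egr2, ENSMUSG00000023034 was among the closest, at 0.82 and 0.81, with 37.3 ± 10.5 CPM in the dark and 23.7 ± 4.64 CPM in the light in D1 neurons (SD). The other gene closest to Egr2 was ENSMUSG00000022602 (0.81), with 101.6 CPM in the dark and 62.6 CPM in the light in D1 neurons. ENSMUSG00000063317 (0.82) followed for Egr1 and ENSMUSG00000031778 (0.80) led for Egr3. These identifiers are not paired with names in the files.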

How the data were processed

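The authors deposited unnormalised whole-number counts, 1 column per library, in a table labelled as filtered by log CPM. Per the submitters' processing notes, FastQC 0.11.7, HISAT2 and HTSeq 0.10.0 were used, and the builds named are GRCm38 and GRCh38. The sources used here do not say whether counting used strand. The table pairs no identifier with a symbol, and 0 of 49997 entries of the reference table carry an Ensembl identifier, so lists of other early genes, Egr targets, upstream regulators and cell markers could not be scored.

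CPM were computed from TMM-adjusted totals over all 91 libraries. Tests were edgeR 4.0.16 quasi-likelihood F-tests in R 4.3.3, Benjamini-Hochberg adjusted over all 14355 genes. D1, D2 and all libraries were fitted separately, with a mean per sex and time, or a 24 h cosine per sex, and contrasts averaged over the sexes. Adjusted p-values are edgeR's unless another tool is named. DESeq2 1.42.0, limma 3.58.1 on log2(CPM + 1), RLE size factors, filterByExpr, letters as a block, and leaving out letters or 3 libraries were alternatives, of which the letter shared by both cell types was added after seeing the data. The script was tested on simulated data.

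Letters were taken to pair D2 libraries: the lowest correlation of deviations from group means among 243 same-letter pairs was 0.22 (median 0.74). In D1 the lowest was -0.63 (median 0.23), so they were not taken to pair there. Between D1 and D2 libraries of the same letter the lowest of 510 pairs was -0.75 (median 0.44), and 74.7% exceeded 0.1. The tests between D1 and D2 neurons given without a block leave this out of account. Letter E is 1 D1 library, which its own block level fits fully. No 2 libraries of a group were copies: over 129 pairs, the chi-square per gene averaged at least 4.24, where sampling noise gives 1. Promoters are RefSeq windows of GRCm38.p6, matched by symbol for 2 of 4 members. The Ensembl identifiers of the members, and all lists, were chosen with earlier results of these data known. Other genes were named by a rule, the 2 most correlated with each member, of which 1 for Egr3 is not printed.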

Additional observations from a re-analysis of the deposited data

Results flagged for a closer look

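In 1 of 48 combinations of member, cell type and time, a single library lay far from the others: Egr4 in D1 neurons at ZT 10, where the male letter A library had 16.9 CPM and the nearest of the other 7 had 11.1 CPM, a gap of 0.59 of the whole range (n = 8). Chance flags about 1 in 20 such groups.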

How the results depend on the processing

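Of 629 alternative values of 52 results on the members, 601 kept their side of the threshold, 10 lost a call and 18 gained one. Among those 601, 34 that were called in neither fit changed sign. DESeq2 left 3 adjusted p-values as missing. All lost calls were of Egr2 and came from leaving out a letter: its D1 amplitude lay between 0.70 and 0.85, its D2 dark minus light difference between 0.75 and 0.99, and its span over the 6 times between 1.33 and 1.61 in D1 and between 1.35 and 1.56 in D2 neurons. With the letter as a replicate block in D2 neurons, calls were gained for amplitude (Egr1 0.33, Egr3 0.14, Egr4 0.18), dark minus light (Egr1 0.41, Egr3 0.20, Egr4 0.25) and the span of Egr1 (0.69). Without the 3 libraries that stand apart and with the block, calls were gained in D1 neurons for dark minus light of Egr1 (0.31) and Egr4 (0.31) and the span of Egr1 (0.58), and for the D1 minus D2 level of Egr2 (0.26). The D1 minus D2 level of Egr4 passed the threshold with DESeq2 (0.23), limma on log2(CPM + 1) (0.23), the block (0.28), the letter shared by both cell types (0.26), without the 3 libraries (0.27), and without them plus block (0.33), and it lay between 0.13 and 0.37 when a letter was left out. The block changed no other member's call in these tests. In D1 neurons, where the letters were not taken to pair libraries, it left Egr2 as the member called for rhythm, dark against light and any time. The cause of these shifts was not tested, beyond the fewer libraries that leaving out gives.

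Counts of genes called over the whole table moved more. DESeq2 gave 215 (D1) and 669 (D2) for rhythm, 141 and 484 for dark against light, 97 and 318 for any time, 32 for the rhythm difference, 40 for dark minus light between cell types, 37 for sex in D2, and 1 (D1) and 2 (D2) for the sex difference in dark minus light. Both limma settings gave 6 for dark minus light between cell types and 1 for the rhythm difference, as did a single term for both sexes (1). With the replicate block the counts were 162 and 3198 for rhythm, 105 and 2560 for dark against light, 47 and 1463 for any time, 465 and 455 for the rhythm and dark minus light differences between cell types, 6024 for D1 minus D2 level (5132 with the letter shared), and 849 and 1199 for sex. Without the 3 libraries they were 177 for D1 rhythm, 127 for D1 dark against light, 59 for any time in D1, 7 for dark minus light between cell types and 1 for the rhythm difference; with the block as well they were 293, 273, 183, 357 and 222, with 6571 for level and 30 for sex in D1. Leaving out a letter gave 13 to 54 (D1) and 55 to 261 (D2) for rhythm, 10 to 35 and 15 to 193 for dark against light, 4 to 12 and 8 to 46 for any time, 0 to 7 for the rhythm difference, 0 to 5 for dark minus light between cell types, 1595 to 6301 for level, 2 to 8 and 2 to 15 for sex, and 0 to 1 for the sex difference in D2 dark minus light.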
